A study of Homo sapiens with 12 samples.

Results

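Chemokines, inflammatory cytokines, acute-phase proteins and the feedback genes of NF-kB were followed in RNA of NCI-H520, a human lung squamous cell carcinoma line. The 36 genes were taken as a named list, chosen with earlier results of these data known. Their counts beside the shares of all genes are therefore descriptive and no test of the list. The genes were matched by symbol to the Ensembl rows of a count table of 58302 genes, and all 36 were found. Of these, 34 passed the filter on low counts, CXCL14 and IL33 being the exceptions, and are among 17849 genes tested. The 12 libraries form 4 groups of 3 by their labels. L1_F_DMSO (OV-L1-FGGY with DMSO) are H520 cells stably expressing the chimeric transcript L1-FGGY from a lentivirus and treated with 0.2% DMSO. L1_F_ML355 are the same cells treated with 10 μM ML355, an inhibitor of the arachidonic acid enzyme 12-LOX. L1_F_NVR are labelled as these cells treated with 450 μM NVR, a reverse transcriptase inhibitor used against HIV. CTRL_DMSO is a control treated with 0.2% DMSO, whose label names no vector and which was read as the OV-CTRL line of the study. Medium with inhibitor or DMSO was put on 5 h after seeding. The DMSO content with ML355 or NVR and the length of the exposure are not given in the sources used here. Nor are the promoter of the construct and whether a line is 1 clone. Where nothing says that equal labels are separate cultures, p-values measure only the spread between these libraries.

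NF-kB is a family of dimeric transcription factors held in the cytoplasm by inhibitor proteins such as IκBα, the product of NFKBIA. Signals from TNF, interleukin 1 and Toll-like receptors lead to phosphorylation and loss of the inhibitor, after which the dimers enter the nucleus and bind short sites in promoters of chemokine and cytokine genes. Among the genes induced are NFKBIA itself and TNFAIP3, which encodes the ubiquitin-editing enzyme A20, so that the response limits itself. In airway epithelium and lung carcinoma these genes are known for the recruitment of neutrophils and monocytes. Many of the messages carry AU-rich elements in their 3′ untranslated region, to which destabilizing proteins such as tristetraprolin (ZFP36) bind.

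The promoters of the 6 ELR CXC chemokines are shown because these genes lie in 1 cluster on chromosome 4 (GRCh38, chr4:73740519-73743716 for CXCL8 at one end and chr4:74097040-74099196 for CXCL2 at the other) and yet differed in level and in direction. Each sequence is the RefSeq window (GRCh38.p14) from 250 bases before to 50 bases after the start of the gene, 5′ to 3′ on the strand of the gene, with letters that match the NF-kB consensus on either strand in capitals.
CXCL1, chr4:73869143-73869442, plus strand: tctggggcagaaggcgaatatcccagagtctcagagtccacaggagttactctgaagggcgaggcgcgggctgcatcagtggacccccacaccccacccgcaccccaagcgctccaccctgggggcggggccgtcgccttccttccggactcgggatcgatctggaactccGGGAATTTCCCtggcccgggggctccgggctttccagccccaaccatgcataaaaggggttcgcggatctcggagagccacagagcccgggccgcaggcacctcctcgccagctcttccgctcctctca
CXCL2, chr4:74099146-74099445, minus strand: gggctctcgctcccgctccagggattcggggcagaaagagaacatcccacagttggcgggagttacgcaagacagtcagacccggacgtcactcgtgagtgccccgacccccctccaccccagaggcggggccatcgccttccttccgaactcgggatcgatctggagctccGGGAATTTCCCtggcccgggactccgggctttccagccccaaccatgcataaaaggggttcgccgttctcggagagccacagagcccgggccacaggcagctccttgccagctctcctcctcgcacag
CXCL3, chr4:74038640-74038939, minus strand: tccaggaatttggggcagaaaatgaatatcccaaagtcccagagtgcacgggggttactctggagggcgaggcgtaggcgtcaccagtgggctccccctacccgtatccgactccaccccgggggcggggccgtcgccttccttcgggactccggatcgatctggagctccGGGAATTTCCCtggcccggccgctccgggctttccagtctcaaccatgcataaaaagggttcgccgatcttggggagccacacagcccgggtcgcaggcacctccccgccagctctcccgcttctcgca
CXCL5, chr4:73998628-73998927, minus strand: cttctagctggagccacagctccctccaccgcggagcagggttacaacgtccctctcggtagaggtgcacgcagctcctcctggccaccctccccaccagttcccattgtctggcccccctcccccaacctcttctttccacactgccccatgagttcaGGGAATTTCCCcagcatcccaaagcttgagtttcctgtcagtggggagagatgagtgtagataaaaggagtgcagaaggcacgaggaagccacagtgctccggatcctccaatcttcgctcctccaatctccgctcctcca
CXCL6, chr4:73836428-73836727, plus strand: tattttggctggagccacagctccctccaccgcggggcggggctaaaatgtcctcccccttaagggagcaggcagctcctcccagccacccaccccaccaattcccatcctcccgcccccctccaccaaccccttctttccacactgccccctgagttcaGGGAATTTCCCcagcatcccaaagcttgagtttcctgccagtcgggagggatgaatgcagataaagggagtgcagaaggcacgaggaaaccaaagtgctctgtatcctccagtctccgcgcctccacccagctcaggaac
CXCL8, chr4:73740319-73740618, plus strand: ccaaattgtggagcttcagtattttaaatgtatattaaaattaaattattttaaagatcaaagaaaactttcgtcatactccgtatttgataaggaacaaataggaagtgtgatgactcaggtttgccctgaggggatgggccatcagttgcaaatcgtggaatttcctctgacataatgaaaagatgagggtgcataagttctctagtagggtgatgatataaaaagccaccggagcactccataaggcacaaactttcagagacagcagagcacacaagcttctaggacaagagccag

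In 5 of these 6 windows the same 11 letters matched the consensus on both strands, as a pair of overlapping matches that began 79 bases upstream of the start in CXCL1 and CXCL3, 78 in CXCL2, 91 in CXCL5 and 90 in CXCL6. CXCL8 held no match to the consensus in this window, although its letters include ggaatttcc, which is part of those 11 letters. In aligned positions the windows of CXCL1 and CXCL3 were 87.0% identical, those of CXCL2 and CXCL3 82.7%, those of CXCL1 and CXCL2 76.0% and those of CXCL5 and CXCL6 84.2%, while CXCL8 was 47.2% to 51.6% identical to the other five. Windows were found for 24 of the 36 genes (30 windows). The NF-kB consensus matched in 13 of the 30 windows (43.3%), from 12 genes, namely CXCL1, CXCL2, CXCL3, CXCL5, CXCL6, CCL20, IL6, IL32, LCN2, NFKBIA, NFKB2 and TNFAIP3, against 11.3% of 35116 promoter windows of the same length. The AP-1 motif TGANTCA, searched on both strands, was in 7 of 30 (23.3%, against 7.71% of all windows), and the TATA box TATAAA, searched on the strand of the gene, in 5 of 30 (16.7%, against 7.33%). A match of letters is a description and no evidence of binding, and a missing match is no evidence that a site is absent.

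The 3′ untranslated regions are shown for CXCL1, CXCL2 and CXCL3, the 3 neighbours whose promoters are compared above, and for IL6. These 30-base stretches come from the MANE transcripts of GENCODE 44, with copies of ATTTA in capitals.
CXCL1: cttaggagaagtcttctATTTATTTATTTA
CXCL2: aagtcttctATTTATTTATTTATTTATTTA
CXCL3: ttacgagggttctacttATTTAtgtATTTA
IL6: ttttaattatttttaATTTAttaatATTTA
The stretch of CXCL2 held 5 overlapping copies of the pentamer, that of CXCL1 3, and those of CXCL3 and IL6 2 each. The longer AU-rich heptamer TATTTAT was present at least once in the 3′ untranslated region of 22 of the 36 genes (61.1%), against 32.1% of 18780 MANE transcripts, and at least 3 times in 13 (36.1%), against 6.34%. These regions had a median length of 789 bases in the 36 genes and 1088.5 bases in all MANE transcripts. TNF and CXCL2 held 8 copies each, IL11 and CSF2 7 each and LIF 5, while CCL2, CCL5, IL18, IL32, the acute-phase genes, RELB and NFKB2 were among the genes with 0.

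FGGY, the gene of the construct, was read first as a check of the labels. Its counts were 4782, 5206 and 6196 in OV-L1-FGGY with DMSO and 7346, 6290 and 5080 with ML355, while OV-CTRL held 91, 87 and 78 and the NVR label 82, 103 and 88. The libraries labelled NVR therefore went against their label, and each of their values is given beside both DMSO groups. Log2 CPM correlated at 0.932 or more within 2 sets of libraries (OV-L1-FGGY with DMSO or ML355, and labelled NVR or OV-CTRL) and at 0.706 to 0.774 between the sets, so that L1-FGGY and whatever else separates the sets cannot be told apart. Total counts ran from 16242082 to 27004768 per library, and 3 counts, the least on which a fold was based, were 0.111 to 0.172 CPM.

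Markers of cell types moved with the sets, among them those of the squamous and epithelial lineage of H520 itself. Of 10 squamous and epithelial markers, summing to 1036 to 1078 CPM in OV-L1-FGGY with DMSO, 736 to 927 with ML355, 1925 to 3181 in the libraries labelled NVR and 3852 to 5313 in OV-CTRL, SOX2 was at 0 in all 6 libraries of the first set, and KRT5, KRT6A and DSG3, which define squamous cells, were at or under 3 counts in every library. The means of KRT8, KRT18, CDH1 and TP63 were also lower in the first set, but TRIM29 and EPCAM went the other way. TRIM29 averaged 183 CPM in OV-L1-FGGY with DMSO, 348 with ML355, 1.69 under the NVR label and 4.09 in OV-CTRL. EPCAM averaged 8.87, 9.17, 0.859 and 1.57 CPM in the same order. Fibroblast and endothelial markers (8 genes) summed to 345 to 359, 111 to 122, 20.1 to 22.7 and 20.2 to 25.8 CPM in the same order. DCN and LUM carried most of the first and COL1A2 was at or under 3 counts throughout. The 8 leukocyte markers summed to 3.33 to 4.47, 2.76 to 3.97, 11.7 to 15.1 and 6.60 to 8.09 CPM, with CD3E, CD68, LYZ and FCGR3A at or under 3 counts in every group and PTPRC at 0 in the libraries labelled NVR and in OV-CTRL. In bulk RNA, fewer cells of a type and less RNA per cell cannot be told apart, and the part of these markers in the results was not tested.

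Differential expression was tested with edgeR's quasi-likelihood test in 1 fit of the 4 groups, and a gene was called at a Benjamini-Hochberg adjusted p under 0.01, as in all p-values given here. After ML355, 15 of the 34 members tested rose and 7 fell, where 21.3% of all genes tested rose and 23.5% fell. CSF2 and TNF, at or near 0 counts with DMSO, could hardly be called other than higher. The same holds for TNFSF15 with ML355 and the call of lower. The 34 include 6 members at or under 3 counts in both groups, which were not called. The member median was 0.53 on the log2 scale (0.85 with groups at or under 3 counts set to their bound and 6 members at or under 3 counts in both groups left out), against 0.00 over all genes. In OV-L1-FGGY against OV-CTRL, both with DMSO, 4 members were higher and 25 lower (all genes 32.5% and 36.2%), with a median of -3.01 (-2.56 at the bounds) against -0.11. Of these 25, 7 had at most 3 counts in every OV-L1-FGGY library with DMSO. They passed the filter through other groups, so lower was the only call open to them. CCL2 (8, 10 and 5 counts there), CCL20 (5, 2 and 14) and TNF (0, 1 and 6) were near that floor. For them too, lower was all but the only call open. The libraries labelled NVR had 25 members higher and 2 lower than OV-L1-FGGY with DMSO (all genes 38.2% and 35.4%, and a median of 2.89 against 0.08). The same 7 members are among the 25 higher, the only call open to them here. CCL2, CCL20 and TNF are also among the 25, with the same limit. The 2 lower were CCL5 (-1.04 ± 0.17, adjusted p = 3.11e-05) and TNFSF15 (-2.10 ± 0.26, adjusted p = 1.79e-06). Against OV-CTRL they had 14 higher and 4 lower (all genes 14.5% and 15.3%, and a median of 0.55 against 0.00). The first 3 of these comparisons share the libraries of OV-L1-FGGY with DMSO while comparisons with OV-CTRL share its libraries and those with the NVR label share theirs, so they are not independent of each other. With library size alone in place of TMM, the comparison of the NVR label with OV-L1-FGGY gave 23 higher and 5 lower.

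**Figure D1:**
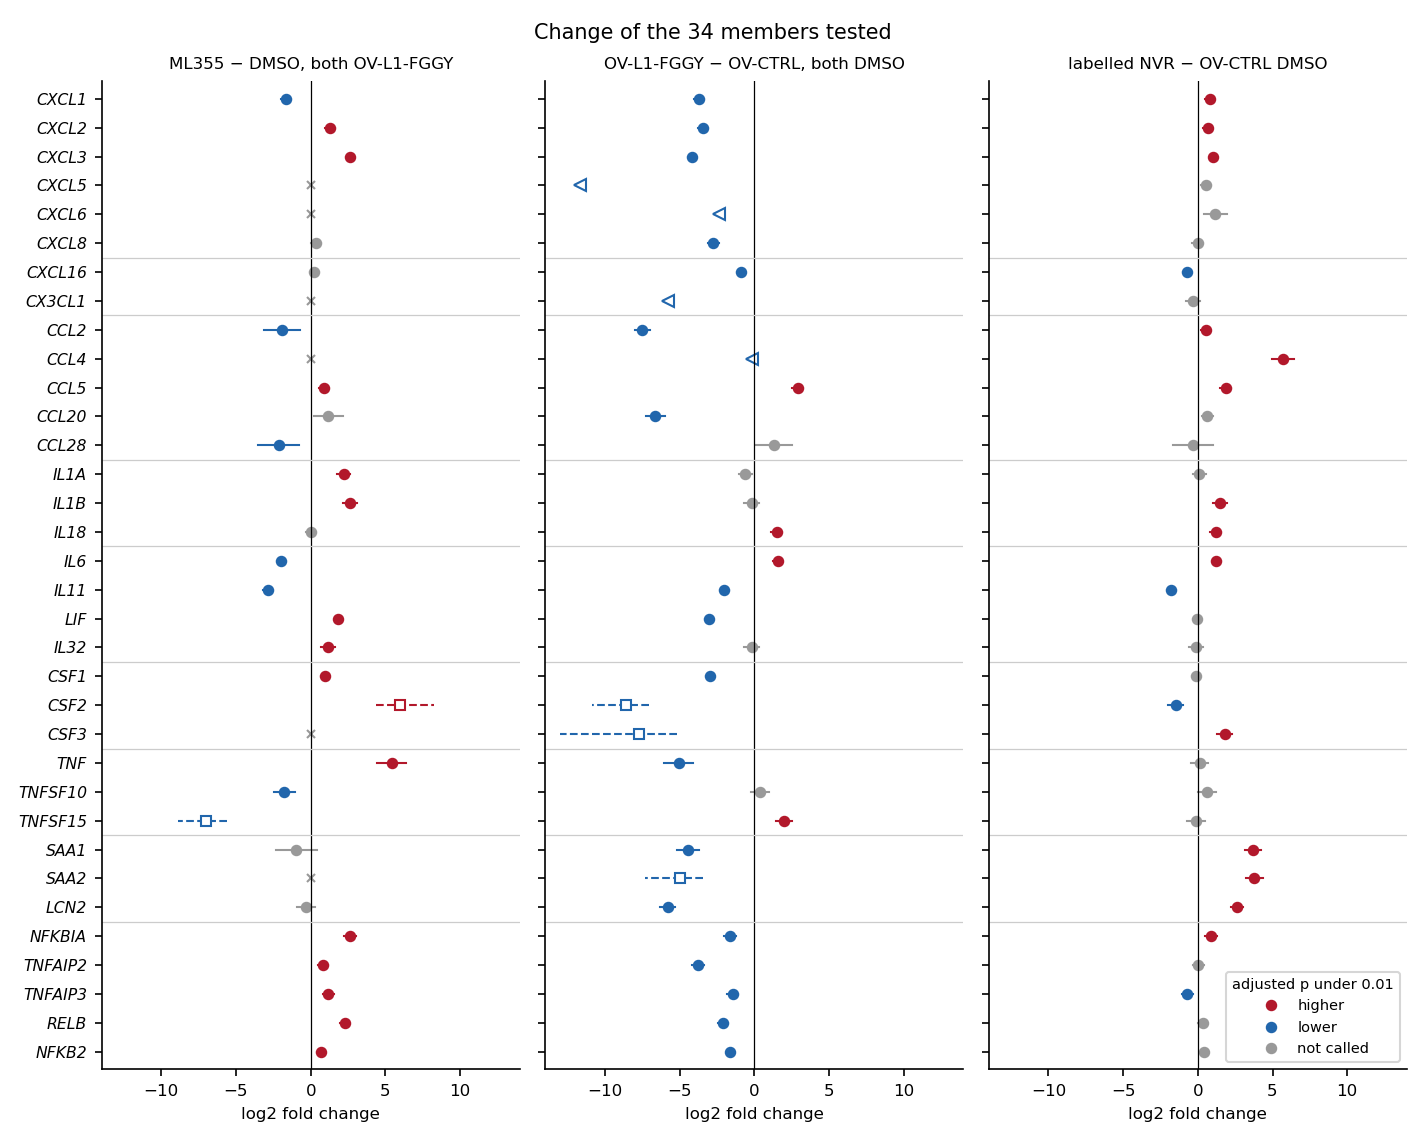
Log2 fold change (horizontal axis) of the 34 members tested (vertical axis, grouped by role) in 3 comparisons. Circles are fitted values with 95% intervals, open squares pooled count ratios with exact intervals, open triangles lower bounds of the change where 1 group was at 0, and crosses genes at or under 3 counts in both groups. In the middle panel 25 members are lower and 4 higher, and in the left panel 15 are higher and 7 lower.

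The ELR CXC chemokines, ligands of CXCR1 and CXCR2 that attract neutrophils, were all lower in OV-L1-FGGY than in OV-CTRL, and ML355 split them. CXCL3 and CXCL2 rose 6.305-fold and 2.44-fold after ML355 while CXCL1 fell 3.199-fold. CXCL1 measured 336, 297 and 288 CPM in OV-CTRL, 20.5, 29.98 and 19.8 in OV-L1-FGGY with DMSO, 6.41, 7.11 and 8.46 with ML355 and 543, 501 and 553 in the libraries labelled NVR. The groups did not overlap, ML355 being the lowest. CXCL2 measured 229, 199.5 and 196 CPM in OV-CTRL, 19.2, 19.1 and 18.7 in OV-L1-FGGY with DMSO, 45.4, 35.7 and 58.1 with ML355 and 341, 318 and 324 in the libraries labelled NVR. CXCL3 stood at 5.28, 5.42 and 5.14 CPM in OV-L1-FGGY with DMSO, with ML355 at 36.3, 28.5 and 35.1, in OV-CTRL at 102, 98.5 and 90.7 and in the libraries labelled NVR at 202, 199 and 196. For both genes the ML355 libraries lay above every library of OV-L1-FGGY with DMSO and below every library of OV-CTRL. The changes with ML355 were -1.68 ± 0.16, adjusted p = 3.35e-07 for CXCL1, 1.29 ± 0.15, adjusted p = 1.74e-06 for CXCL2 and 2.66 ± 0.12, adjusted p = 1.71e-10 for CXCL3, as log2 fold changes with their SE. Per kilobase of exon, CXCL1 stood at 6.26 to 9.02 times the level of CXCL3 in OV-L1-FGGY with DMSO, at 0.287 to 0.407 times with ML355, at 4.91 to 5.35 times in OV-CTRL and at 4.10 to 4.59 times in the libraries labelled NVR. This order was turned in the 3 ML355 libraries and in none of the other 9. Between CXCL1, CXCL2 and CXCL3, transcripts were 80.2% to 91.1% identical in aligned positions and shared 5.26% to 10.1% of their 50-base stretches but no stretch of 100 bases, so that reads of a shared stretch could be split between them or left out, depending on a setting that is not given in the sources used here.

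CXCL5 and CXCL6, neighbours in the same cluster, had 0 counts in all 6 libraries of OV-L1-FGGY with DMSO or ML355. The CPM of CXCL5 were 517, 556 and 590.5 in OV-CTRL, 0 in all 3 libraries in OV-L1-FGGY with DMSO, 0 in all 3 libraries after ML355 and 822, 997 and 625 under the NVR label. Its counts in OV-CTRL and the libraries labelled NVR were between 11391 and 26931, and all 6 libraries of OV-L1-FGGY with DMSO or ML355 were at 0. CXCL5 was thus at least 3222-fold lower in OV-L1-FGGY with DMSO than in OV-CTRL (adjusted p = 2.79e-12) and at least 4734-fold higher in the libraries labelled NVR (adjusted p = 1.75e-12), with the bound set by 3 counts per library. CXCL6 measured 0.925, 0.938 and 0.844 CPM in OV-CTRL, 0 in all 3 libraries in OV-L1-FGGY with DMSO, 0 in all 3 libraries with ML355 and 2.001, 1.96 and 2.19 in the libraries labelled NVR. The 6 libraries with counts held 22 to 53 of them, and the bound was 5.24-fold lower in OV-L1-FGGY than in OV-CTRL (adjusted p = 7.5e-06). No fold is given with ML355 for either gene. Of the exonic bases of CXCL5, 17.3% lie under a gene on the opposite strand, and the strand setting of the counting is not given in the sources used here. PF4V1, PF4 and PPBP, the other genes of the cluster, had 0 counts in the 6 libraries of OV-L1-FGGY with DMSO or ML355 and at most 15 elsewhere.

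CXCL8, the interleukin 8 gene, was kept at a measurable level in OV-L1-FGGY. CXCL8 stood at 55.98, 66.2 and 46.7 CPM in OV-L1-FGGY with DMSO, with ML355 at 85.05, 75.8 and 54.6, in OV-CTRL at 368, 376 and 381 and in the libraries labelled NVR at 373, 444 and 303. The libraries of OV-L1-FGGY with DMSO and with ML355 overlapped, and all 6 lay below the other 6. The change with ML355 was 0.35 ± 0.17, adjusted p = 0.0894 (95% interval -0.01 to 0.71), and OV-L1-FGGY was 6.67-fold lower than OV-CTRL (log2 -2.74 ± 0.18, adjusted p = 8.11e-10). Against OV-CTRL the libraries labelled NVR were higher for CXCL1 (0.79 ± 0.14, adjusted p = 0.000387), CXCL2 (0.65 ± 0.14, adjusted p = 0.00125) and CXCL3 (1.03 ± 0.11, adjusted p = 1.82e-06). They did not pass the test for CXCL5 (0.56 ± 0.16, adjusted p = 0.0135), CXCL6 (1.18 ± 0.34, adjusted p = 0.0144) or CXCL8 (-0.01 ± 0.17, adjusted p = 0.988). Without replicate 3 of the NVR label, CXCL5 was called (log2 0.73, adjusted p = 0.000629).

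**Figure D2:**
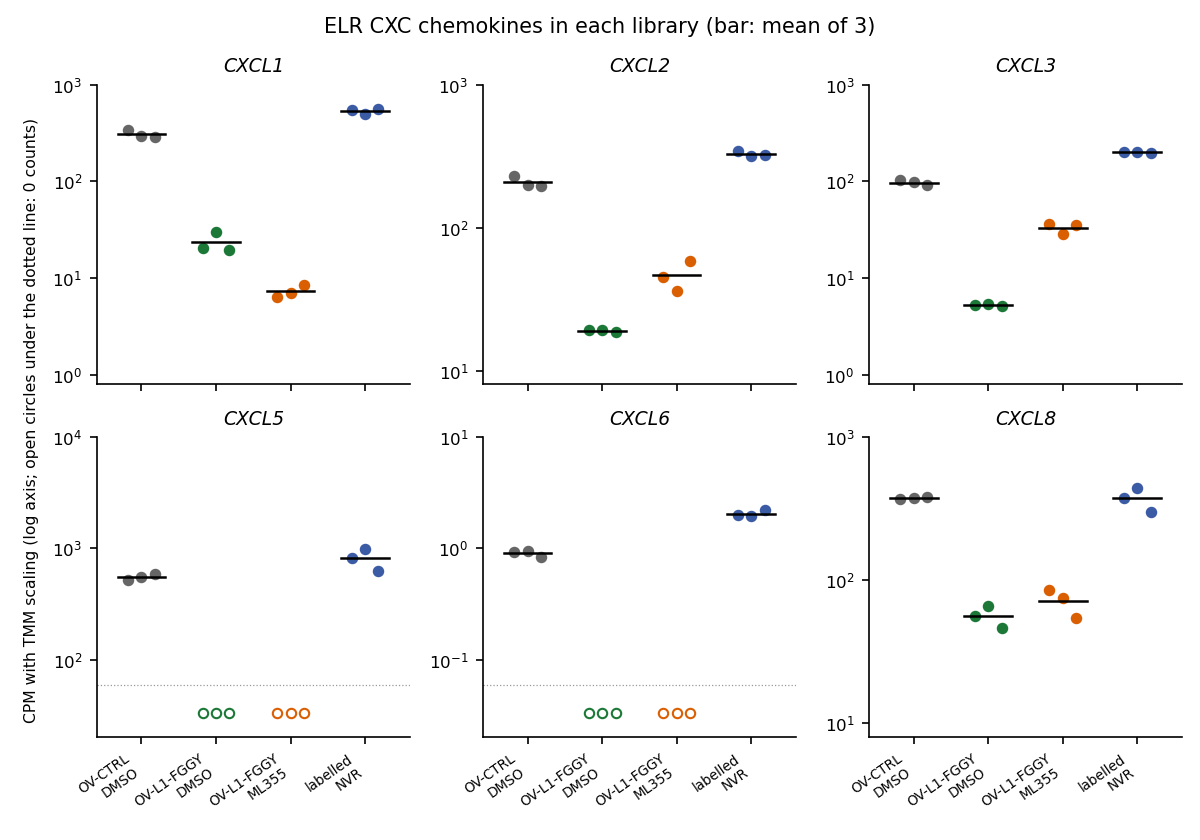
Expression in CPM with TMM scaling (log axis) of the 6 ELR CXC chemokines in each of the 12 libraries, by group (horizontal axis). Points are libraries, bars means of 3, and open circles under a dotted line libraries with 0 counts, as in the 6 libraries of OV-L1-FGGY with DMSO or ML355 for CXCL5 and CXCL6. ML355 lies above OV-L1-FGGY with DMSO for CXCL2 and CXCL3 and below it for CXCL1.

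Of the other CXC and CX3C chemokines, CXCL16 and CX3CL1 were lower in OV-L1-FGGY than in OV-CTRL and neither was called with ML355. CXCL16 is a membrane-bound ligand of CXCR6. CXCL16 measured 35.6, 41.4 and 37.1 CPM in OV-CTRL, 19.3, 22.7 and 20.3 in OV-L1-FGGY with DMSO, 22.5, 26.8 and 24.4 with ML355 and 24.5, 25.3 and 19.1 in the libraries labelled NVR. Only OV-CTRL stood apart, above all 9 other libraries. OV-L1-FGGY with DMSO was lower than OV-CTRL (-0.87 ± 0.13, adjusted p = 1.32e-05), as were the libraries labelled NVR (-0.72 ± 0.13, adjusted p = 0.00034), and ML355 did not pass the test (0.24 ± 0.13, adjusted p = 0.125). CX3CL1 is fractalkine, and the 6 libraries of the first set held 2 counts of it in all, both in 1 ML355 library. The CPM of CX3CL1 were 10.1, 8.68 and 9.63 in OV-CTRL, 0 in all 3 libraries in OV-L1-FGGY with DMSO, 0, 0.103 and 0 after ML355 and 7.56, 7.74 and 7.13 under the NVR label. It was at least 55.02-fold lower in OV-L1-FGGY with DMSO than in OV-CTRL (adjusted p = 4.69e-10). CXCL14 had 0 to 10 counts per library and was not tested.

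Among the CC chemokines, CCL5 ran against CCL2, CCL4 and CCL20. CCL5 (RANTES), which attracts T cells and monocytes, was the member with the highest level per kilobase of exon in OV-L1-FGGY, at 262 CPM per kb with DMSO and 485 with ML355, against 128 in the libraries labelled NVR and 35.1 in OV-CTRL. CCL5 stood at 324, 374 and 372 CPM in OV-L1-FGGY with DMSO, with ML355 at 732, 590.0 and 663, in OV-CTRL at 58.1, 43.3 and 42.4 and in the libraries labelled NVR at 166, 134 and 222. The 4 groups did not overlap, in the order ML355, OV-L1-FGGY with DMSO, NVR label, OV-CTRL from high to low. It was 7.44-fold higher in OV-L1-FGGY than in OV-CTRL (log2 2.90 ± 0.18, adjusted p = 4.37e-10), rose 1.86-fold with ML355 (log2 0.89 ± 0.17, adjusted p = 0.000286) and was 3.63-fold higher under the NVR label than in OV-CTRL (log2 1.86 ± 0.17, adjusted p = 7.35e-07). Of the 50-base stretches of its transcript, 18.5% recur in other genes, so part of its reads may be counted elsewhere or not at all.

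CCL2 (MCP-1, a monocyte attractant) and CCL20 (the ligand of CCR6) were high in OV-CTRL and near the limit of detection in OV-L1-FGGY. CCL2 measured 84.8, 72.3 and 68.6 CPM in OV-CTRL, 0.459, 0.526 and 0.252 in OV-L1-FGGY with DMSO, 0.197, 0.103 and 0 with ML355 and 109, 106 and 114 in the libraries labelled NVR. The CPM of CCL20 were 43.3, 36.4 and 33.8 in OV-CTRL, 0.287, 0.105 and 0.705 in OV-L1-FGGY with DMSO, 0.493, 1.08 and 0.998 after ML355 and 62.9, 55.8 and 57.7 under the NVR label. For both, every library of OV-L1-FGGY with DMSO or ML355 lay below every other library. CCL2 was -7.50 ± 0.24, adjusted p = 1.38e-13 in OV-L1-FGGY against OV-CTRL and CCL20 -6.64 ± 0.30, adjusted p = 8.72e-12 on the log2 scale, or -7.57 (adjusted p = 5.4e-11) without replicate 3 of OV-L1-FGGY with DMSO, which held most of the counts. After ML355, CCL2 fell (-1.94 ± 0.56, adjusted p = 0.00783) on counts of 8, 10 and 5 against 4, 2 and 0. That call was lost without replicate 1 (adjusted p = 0.024) or 2 (adjusted p = 0.0353) of OV-L1-FGGY with DMSO and without replicate 2 (adjusted p = 0.0228) or 3 (adjusted p = 0.0373) of ML355, and without ML355 replicate 1 the value was -2.84. CCL20 did not pass the test with ML355 (1.18 ± 0.45, adjusted p = 0.0335) but did without replicate 3 of OV-L1-FGGY with DMSO (2.11, adjusted p = 0.00256). Against OV-CTRL, CCL2 was higher under the NVR label (0.54 ± 0.14, adjusted p = 0.00625), a call lost without NVR replicate 1 or 3 (adjusted p = 0.0236 and 0.0113) or OV-CTRL replicate 2 or 3 (adjusted p = 0.0361 and 0.0349). CCL20 fell short (0.64 ± 0.18, adjusted p = 0.0106) and passed without NVR replicate 2 (adjusted p = 0.00663) or OV-CTRL replicate 1 (adjusted p = 0.00753).

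CCL4 (MIP-1β), normally a product of leukocytes, was found almost only under the NVR label. The CPM of CCL4 were 0.252, 0.156 and 0.153 in OV-CTRL, 0 in all 3 libraries in OV-L1-FGGY with DMSO, 0 in all 3 libraries after ML355 and 9.91, 8.44 and 11.4 under the NVR label. Its counts were 198, 228 and 207 in the libraries labelled NVR, 6, 4 and 4 in OV-CTRL and 0 in the other 6 libraries. The libraries labelled NVR were 51.6-fold higher than OV-CTRL (log2 5.69 ± 0.34, adjusted p = 1.39e-07). The lower level of OV-L1-FGGY against OV-CTRL was called at an adjusted p of 0.00157, with a bound of only 1.09-fold at this depth. Of the 50-base stretches of CCL4, 23.6% are shared with its copy CCL4L2. CD14 and ITGAM were the leukocyte markers above 3 counts there, CD14 at 11.1 ± 1.78 CPM (SD, n = 3) under the NVR label and 4.004 ± 0.72 for OV-CTRL. CCL28, a mucosal chemokine, stayed low. CCL28 measured 0.379, 0.899 and 0.652 CPM in OV-CTRL, 0.918, 2.52 and 1.41 in OV-L1-FGGY with DMSO, 0, 0.463 and 0.631 with ML355 and 0.6004, 0.555 and 0.384 in the libraries labelled NVR. It fell with ML355 (-2.15 ± 0.64, adjusted p = 0.00891), a call that did not hold without replicate 2 or 3 of OV-L1-FGGY with DMSO (adjusted p = 0.0565 and 0.0156) or without ML355 replicate 1 or 2 (-1.56, adjusted p = 0.0199, and -2.37, adjusted p = 0.0168), and the value was -2.80 without ML355 replicate 3.

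Of the interleukin 1 family, IL1A and IL1B rose with ML355 and IL18 did not pass the test. IL1A and IL1B encode the α and β forms of interleukin 1, which act through IL1R1 upstream of NF-kB. IL1A measured 18.2, 16.8 and 17.7 CPM in OV-CTRL, 11.6, 13.8 and 9.52 in OV-L1-FGGY with DMSO, 47.7, 75.7 and 37.05 with ML355 and 19.3, 19.6 and 16.9 in the libraries labelled NVR. IL1B stood at 3.27, 3.79 and 3.02 CPM in OV-L1-FGGY with DMSO, with ML355 at 25.1, 24.7 and 13.2, in OV-CTRL at 3.45, 4.03 and 3.91 and in the libraries labelled NVR at 10.2, 11.3 and 9.88. With ML355 every library lay above all 9 others for both genes, with replicate 2 the highest for IL1A and replicate 3 the lowest. IL1A rose 4.59-fold (log2 2.20 ± 0.21, adjusted p = 3.27e-07) and IL1B 6.24-fold (log2 2.64 ± 0.22, adjusted p = 8.27e-08). OV-L1-FGGY and OV-CTRL differed by -0.59 ± 0.21, adjusted p = 0.0173 for IL1A and -0.18 ± 0.23, adjusted p = 0.502 for IL1B, neither of which was called. IL1A was called lower there with DESeq2 (-0.64, adjusted p = 0.00792), with only the groups compared in the fit (-0.59, adjusted p = 0.00149) and without a filter on low counts (-0.66, adjusted p = 0.000105). Under the NVR label IL1B was 2.76-fold higher than in OV-CTRL (log2 1.46 ± 0.22, adjusted p = 7e-05) and IL1A was not called (0.08 ± 0.20, adjusted p = 0.772). IL1A was higher under the NVR label than with DMSO in OV-L1-FGGY (0.68 ± 0.21, adjusted p = 0.00772), except without replicate 1 (adjusted p = 0.0245) or 3 (adjusted p = 0.0476) of that group or NVR replicate 1 (adjusted p = 0.0253) or 2 (adjusted p = 0.0211).

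IL18, whose precursor is stored in epithelial cells, followed the pattern of CCL5 between the lines. The CPM of IL18 were 49.1, 37.8 and 36.9 in OV-CTRL, 130.2, 113 and 106 in OV-L1-FGGY with DMSO, 139, 106 and 106 after ML355 and 91.3, 76.7 and 114 under the NVR label. OV-CTRL was the lowest group. OV-L1-FGGY with DMSO was 2.81-fold higher than OV-CTRL (log2 1.49 ± 0.16, adjusted p = 4.08e-07), the libraries labelled NVR 2.28-fold (log2 1.19 ± 0.16, adjusted p = 3.23e-05), and the change with ML355 was 0.01 ± 0.16, adjusted p = 0.977 (95% interval -0.33 to 0.35). IL33 had 0 to 9 counts in any library and was not tested, with 0 in all 3 OV-CTRL libraries.

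The interleukin 6 family moved in both directions. IL6 and IL11, which signal through the shared receptor IL6ST, fell with ML355, while LIF, which uses LIFR and IL6ST, and IL32, an inducer of other cytokines, rose. IL6 measured 11.8, 8.56 and 10.2 CPM in OV-CTRL, 28.7, 30.6 and 30.8 in OV-L1-FGGY with DMSO, 8.23, 7.11 and 7.78 with ML355 and 26.6, 23.1 and 21.8 in the libraries labelled NVR. The level with ML355 was the lowest of the 4 groups, and that of OV-L1-FGGY with DMSO the highest. IL6 was 2.95-fold higher in OV-L1-FGGY than in OV-CTRL (log2 1.56 ± 0.14, adjusted p = 3.09e-08), fell 3.89-fold with ML355 (log2 -1.96 ± 0.14, adjusted p = 1.53e-08) and was 2.34-fold higher under the NVR label than in OV-CTRL (log2 1.23 ± 0.14, adjusted p = 4.48e-06). Opposite-strand genes (STEAP1B and IL6-AS1) cover 9.91% of its exonic bases. IL11 stood at 29.3, 31.6 and 30.03 CPM in OV-L1-FGGY with DMSO, with ML355 at 5.32, 2.99 and 4.05, in OV-CTRL at 125, 125 and 119 and in the libraries labelled NVR at 34.2, 32.6 and 39.8. OV-CTRL was highest, ML355 lowest, with no overlap. IL11 fell 7.33-fold with ML355 (log2 -2.87 ± 0.16, adjusted p = 1.07e-09) and was 4.06-fold lower in OV-L1-FGGY (log2 -2.02 ± 0.14, adjusted p = 1.95e-09) and 3.46-fold lower under the NVR label (log2 -1.79 ± 0.14, adjusted p = 1.23e-07) than in OV-CTRL.

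The CPM of LIF were 273, 263 and 255 in OV-CTRL, 28.9, 32.2 and 35.5 in OV-L1-FGGY with DMSO, 113, 107 and 128 after ML355 and 249, 242 and 254 under the NVR label. ML355 lay between OV-L1-FGGY with DMSO and the other groups. LIF rose 3.602-fold with ML355 (log2 1.85 ± 0.11, adjusted p = 1.9e-09) and was 8.18-fold lower in OV-L1-FGGY than in OV-CTRL (log2 -3.03 ± 0.11, adjusted p = 1.12e-12), and the NVR label was not called against OV-CTRL (-0.09 ± 0.10, adjusted p = 0.521). IL32 measured 104, 80.6 and 70.9 CPM in OV-CTRL, 62.9, 82.1 and 79.9 in OV-L1-FGGY with DMSO, 204, 156 and 144 with ML355 and 73.1, 49.1 and 110.3 in the libraries labelled NVR. ML355 alone stood above the rest, whose groups overlapped. IL32 rose 2.24-fold (log2 1.16 ± 0.23, adjusted p = 0.000449), with no call between OV-L1-FGGY and OV-CTRL (-0.18 ± 0.23, adjusted p = 0.477).

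The colony stimulating factors, growth and survival factors of myeloid cells, were all lower in OV-L1-FGGY than in OV-CTRL. CSF1 stood at 35.05, 36.9 and 41.5 CPM in OV-L1-FGGY with DMSO, with ML355 at 61.9, 77.9 and 76.7, in OV-CTRL at 301, 304 and 291 and in the libraries labelled NVR at 270.2, 283 and 262. The order of the groups was OV-CTRL, NVR label, ML355 and OV-L1-FGGY with DMSO. CSF1 was 7.89-fold lower in OV-L1-FGGY than in OV-CTRL (log2 -2.98 ± 0.12, adjusted p = 1.99e-12) and rose 1.91-fold with ML355 (log2 0.93 ± 0.11, adjusted p = 3.55e-06). CSF2 measured 24.6, 20.2 and 17.2 CPM in OV-CTRL, 0, 0.158 and 0 in OV-L1-FGGY with DMSO, 3.74, 4.02 and 2.21 with ML355 and 7.76, 7.33 and 6.97 in the libraries labelled NVR. Its counts in OV-L1-FGGY with DMSO were 0, 3 and 0 against 76, 78 and 42 with ML355, a ratio of 62.6-fold (95% exact interval 21.1 to 306, counting error only) with an adjusted p of 1.85e-07. Against OV-CTRL it was lower by 386-fold (95% exact interval 132 to 1872, counting error only), adjusted p = 5.5e-11. Since 3 counts of replicate 2 are all that the group held, the fitted log2 change with ML355 moved from 5.82 to 9.16 without it. Under the NVR label CSF2 was 2.81-fold lower than in OV-CTRL (log2 -1.49 ± 0.23, adjusted p = 9.77e-05).

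CSF3 stood at 0, 0 and 0.0504 CPM in OV-L1-FGGY with DMSO, with ML355 at 0 in all 3 libraries, in OV-CTRL at 3.74, 3.75 and 3.57 and in the libraries labelled NVR at 12.8, 10.1 and 15.4. CSF3 had 1 count in the 6 libraries of OV-L1-FGGY with DMSO or ML355. It was 3.45-fold higher under the NVR label than in OV-CTRL (log2 1.79 ± 0.22, adjusted p = 2.49e-05), and lower in OV-L1-FGGY with DMSO than in OV-CTRL by 208-fold (95% exact interval 36.9 to 8226, counting error only), adjusted p = 1.06e-08. Without replicate 3 of OV-L1-FGGY with DMSO, which held that count, the fitted log2 change moved from -7.29 to -9.31, and that against the NVR label from 9.08 to 11.09.

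TNF, the archetypal inducer of NF-kB, was close to absent in OV-L1-FGGY with DMSO and present in the other groups. The CPM of TNF were 4.96, 4.34 and 3.61 in OV-CTRL, 0, 0.0526 and 0.302 in OV-L1-FGGY with DMSO, 6.45, 4.53 and 5.68 after ML355 and 4.904, 3.96 and 5.21 under the NVR label. Its counts were 0, 1 and 6 in OV-L1-FGGY with DMSO, 131, 88 and 108 with ML355, 118, 111 and 94 in OV-CTRL and 98, 107 and 95 under the NVR label, and the last 3 groups overlapped. TNF rose with ML355 (5.42 ± 0.46, adjusted p = 7.4e-08) and was lower in OV-L1-FGGY than in OV-CTRL (-5.05 ± 0.46, adjusted p = 4.73e-08). Without replicate 3 of OV-L1-FGGY with DMSO these log2 values became 7.38 and -7.01, and that of the NVR label against OV-L1-FGGY moved from 5.17 to 7.13. TNFSF15 (TL1A, the ligand of death receptor 3) went the other way. TNFSF15 stood at 8.604, 9.68 and 7.61 CPM in OV-L1-FGGY with DMSO, with ML355 at 0.0985, 0.0515 and 0.0525, in OV-CTRL at 1.81, 2.58 and 2.19 and in the libraries labelled NVR at 2.65, 2.18 and 1.15. It held 2, 1 and 1 counts with ML355 against 150, 184 and 151 with DMSO, lower by 127-fold (95% exact interval 49.1 to 466, counting error only), adjusted p = 3.49e-09. OV-L1-FGGY with DMSO was 3.92-fold higher than OV-CTRL (log2 1.97 ± 0.26, adjusted p = 3.38e-06). TNFSF10 measured 0.841, 1.06 and 0.921 CPM in OV-CTRL, 1.26, 1.21 and 1.21 in OV-L1-FGGY with DMSO, 0.296, 0.3605 and 0.4204 with ML355 and 1.35, 1.48 and 1.48 in the libraries labelled NVR. TNFSF10 (TRAIL, a ligand of death receptors) fell with ML355 (-1.76 ± 0.34, adjusted p = 0.000384) and was not called in OV-L1-FGGY against OV-CTRL (0.38 ± 0.29, adjusted p = 0.246) or for the NVR label against either DMSO group.

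The acute-phase genes were called between OV-L1-FGGY and OV-CTRL and for the NVR label against both, not with ML355, and reached their highest values under the NVR label. SAA1 and SAA2 encode serum amyloid A, and LCN2 encodes lipocalin 2, which withholds siderophore-bound iron from bacteria. SAA1 measured 15.3, 9.502 and 9.82 CPM in OV-CTRL, 0.459, 0.526 and 0.605 in OV-L1-FGGY with DMSO, 0.296, 0.258 and 0.263 with ML355 and 136, 99.1 and 211 in the libraries labelled NVR. SAA2 stood at 0.0574, 0.105 and 0 CPM in OV-L1-FGGY with DMSO, with ML355 at 0, 0.0515 and 0, in OV-CTRL at 1.81, 1.49 and 1.84 and in the libraries labelled NVR at 22.1, 16.6 and 32.2. The CPM of LCN2 were 146, 116 and 105 in OV-CTRL, 1.66, 2.73 and 2.17 in OV-L1-FGGY with DMSO, 2.37, 1.34 and 1.63 after ML355 and 730.4, 584 and 915 under the NVR label. For all 3 genes the libraries labelled NVR lay above OV-CTRL, which lay above all 6 libraries of OV-L1-FGGY. Against OV-CTRL the NVR label was higher 12.9-fold for SAA1 (log2 3.69 ± 0.24, adjusted p = 1.97e-08), 13.7-fold for SAA2 (log2 3.78 ± 0.27, adjusted p = 5.1e-08) and 6.07-fold for LCN2 (log2 2.60 ± 0.19, adjusted p = 5.22e-08). OV-L1-FGGY with DMSO was 21.4-fold lower than OV-CTRL for SAA1 (adjusted p = 8.53e-09) and 55.6-fold lower for LCN2 (adjusted p = 3.13e-12). For SAA2 it was lower by 32.1-fold (95% exact interval 10.7 to 158, counting error only), on 3 counts in all, and the fitted log2 change moved from -4.86 to -5.71 without replicate 2. With ML355, SAA1 (-0.95 ± 0.64, adjusted p = 0.216) and LCN2 (-0.30 ± 0.28, adjusted p = 0.384) were not called. The transcripts of SAA1 and SAA2 are 95.4% identical in aligned positions and share 20.8% and 35.6% of their 100-base stretches with each other or with the readthrough gene SAA2-SAA4, so how reads split between them is uncertain.

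**Figure D3:**
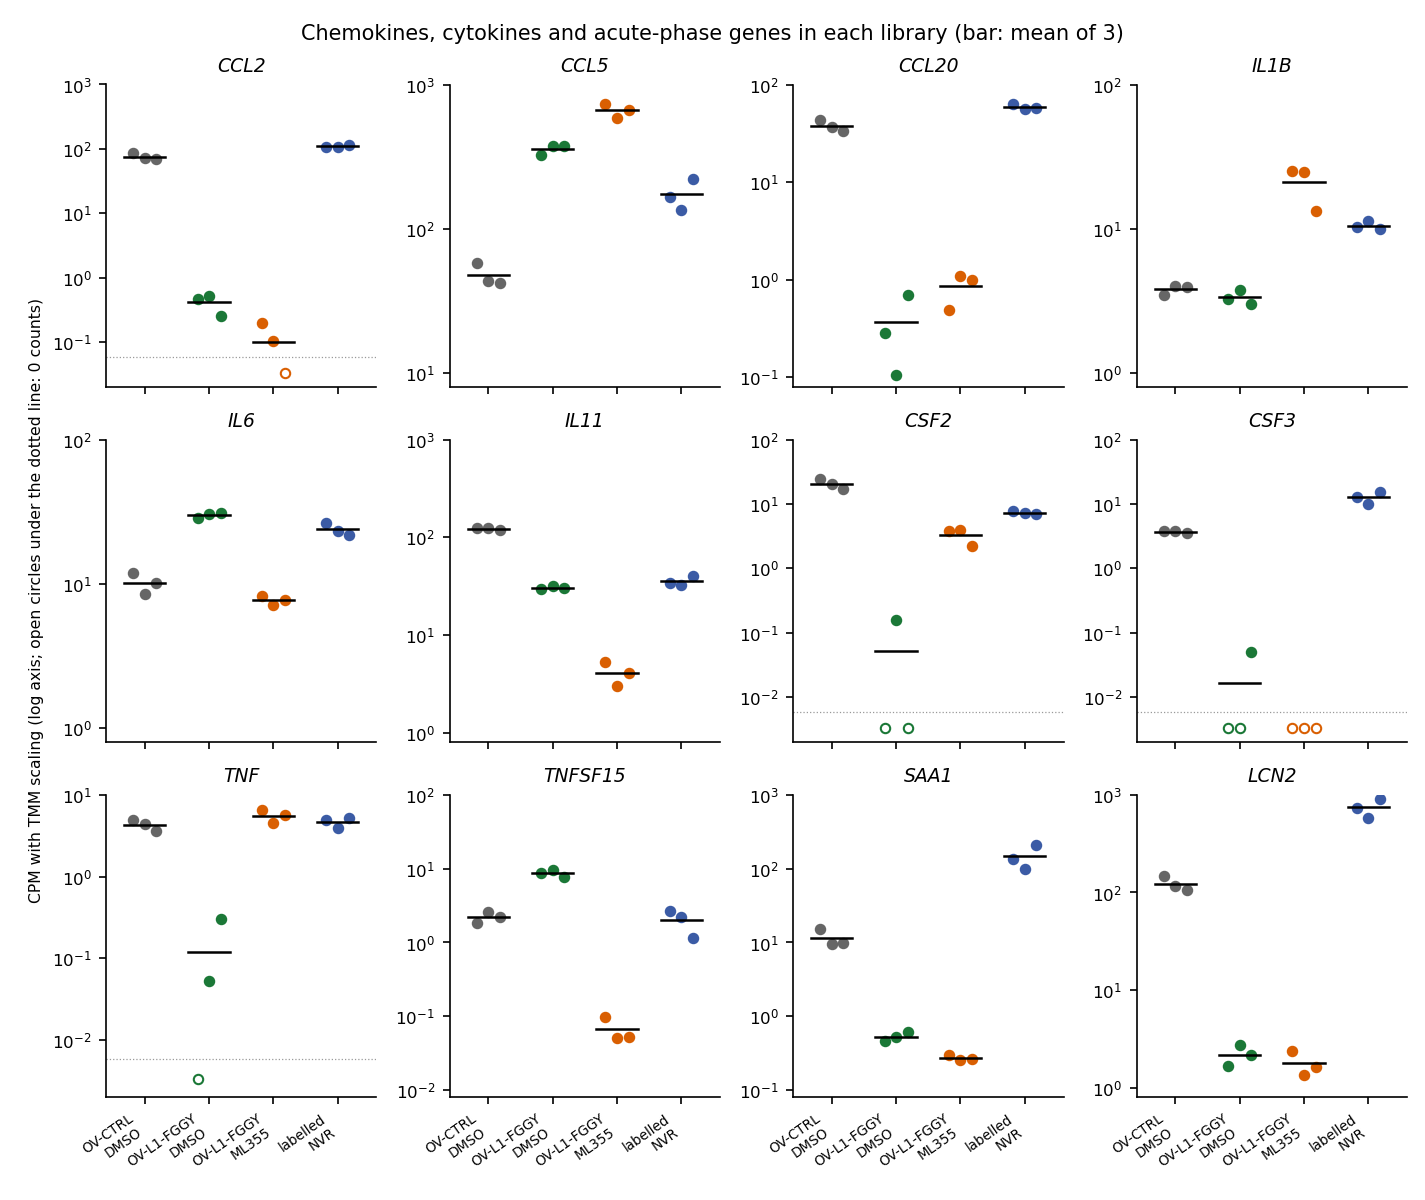
Expression in CPM with TMM scaling (log axis, range set per panel) of 12 chemokine, cytokine and acute-phase genes in each library, by group (horizontal axis). Points are libraries, bars means of 3 and open circles libraries with 0 counts. CCL5 and TNFSF15 are higher in OV-L1-FGGY with DMSO than in OV-CTRL, CCL2, CCL20, CSF3 and LCN2 lower, and TNF, CSF2 and IL1B rise with ML355 while IL6 and IL11 fall.

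The 5 NF-kB subunit and feedback genes all rose with ML355 and were all lower in OV-L1-FGGY than in OV-CTRL. NFKBIA measured 317, 292 and 275 CPM in OV-CTRL, 88.2, 94.9 and 105 in OV-L1-FGGY with DMSO, 709, 386 and 715 with ML355 and 565, 524 and 546 in the libraries labelled NVR. The ML355 libraries spread from 386 to 715, replicate 2 being the lowest, and all lay above those with DMSO. NFKBIA rose 6.28-fold (log2 2.65 ± 0.19, adjusted p = 1.21e-08). RELB stood at 30.3, 33.1 and 30.7 CPM in OV-L1-FGGY with DMSO, with ML355 at 147, 128 and 177, in OV-CTRL at 146, 136 and 118 and in the libraries labelled NVR at 160.3, 139 and 202. RELB, a subunit of the non-canonical pathway, rose 4.805-fold (log2 2.26 ± 0.15, adjusted p = 7.3e-09) to a level that overlapped OV-CTRL and the NVR label. The CPM of TNFAIP3 were 172, 202 and 215 in OV-CTRL, 71.3, 65.4 and 79.3 in OV-L1-FGGY with DMSO, 167, 137 and 184 after ML355 and 116, 154 and 87.5 under the NVR label. It rose 2.26-fold (log2 1.18 ± 0.17, adjusted p = 2.84e-05). TNFAIP2 measured 1965, 2207 and 2121 CPM in OV-CTRL, 149.6, 151 and 159 in OV-L1-FGGY with DMSO, 190.2, 315 and 301 with ML355 and 2114, 2473 and 1873 in the libraries labelled NVR. TNFAIP2, which encodes a protein of membrane nanotubes, had the highest level per kilobase of exon of the members in OV-CTRL, at 415 CPM per kb, and rose 1.75-fold with ML355 (log2 0.81 ± 0.17, adjusted p = 0.000629), to a mean of 269 ± 68.2 CPM (SD, n = 3), still below the 3 OV-CTRL libraries. NFKB2 stood at 165, 169.7 and 169 CPM in OV-L1-FGGY with DMSO, with ML355 at 261, 259 and 300.3, in OV-CTRL at 548, 515 and 464 and in the libraries labelled NVR at 659.5, 588 and 768. NFKB2, the precursor of p52, rose 1.63-fold (log2 0.70 ± 0.12, adjusted p = 0.00012).

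Between the lines, OV-L1-FGGY with DMSO was lower than OV-CTRL by a log2 fold change of -3.77 ± 0.18 for TNFAIP2 (adjusted p = 2.24e-11), -2.09 ± 0.15 for RELB (adjusted p = 3.12e-09), -1.62 ± 0.18 for NFKBIA (adjusted p = 5.71e-07), -1.60 ± 0.12 for NFKB2 (adjusted p = 5.68e-09) and -1.45 ± 0.17 for TNFAIP3 (adjusted p = 1.26e-06). Against OV-CTRL the NVR label was higher for NFKBIA (0.89 ± 0.18, adjusted p = 0.0009) and lower for TNFAIP3 (-0.72 ± 0.17, adjusted p = 0.00311), and RELB (0.32 ± 0.14, adjusted p = 0.0794), NFKB2 (0.40 ± 0.12, adjusted p = 0.013) and TNFAIP2 (0.04 ± 0.16, adjusted p = 0.877) were not called. TNFAIP3 lost its call without NVR replicate 1 or 3 (adjusted p = 0.0156 and 0.0111) or OV-CTRL replicate 2 or 3 (adjusted p = 0.0128 and 0.0151), and NFKB2 gained one without NVR replicate 2 (adjusted p = 0.0027).

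**Figure D4:**
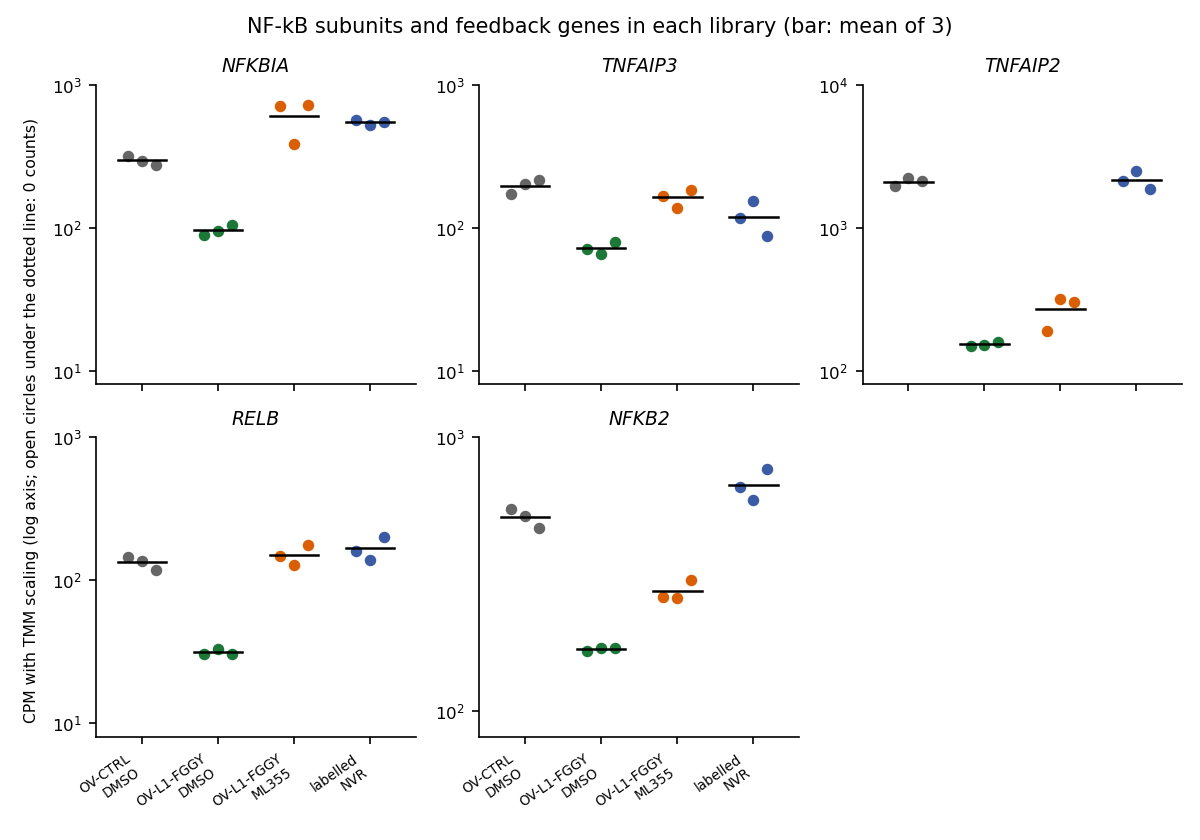
Expression in CPM with TMM scaling (log axis) of NFKBIA, TNFAIP3, TNFAIP2, RELB and NFKB2 in each library, by group (horizontal axis). Points are libraries and bars means of 3. In every panel the ML355 libraries lie above those of OV-L1-FGGY with DMSO, and for TNFAIP2 and NFKB2 they stay below OV-CTRL.

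Other genes of the pathway were counted in lists, with the share of all genes tested that was called given beside each count. Of 8 further NF-kB subunits and inhibitors, 5 rose with ML355 and 0 fell (all genes 21.3% and 23.5%), the 3 with the smallest adjusted p being BCL3 (3.09 ± 0.18, adjusted p = 1.62e-09), NFKBIE (2.14 ± 0.15, adjusted p = 1.36e-08) and NFKBIB (1.31 ± 0.15, adjusted p = 2.02e-06), and RELA and NFKB1 the others. The IκB-like cofactor BCL3 stood at 19.98 ± 2.67 CPM (SD over 3 libraries) for OV-L1-FGGY with DMSO, 171 ± 40.4 with ML355, 269.5 ± 35.1 in OV-CTRL and 653 ± 86.5 under the NVR label. In OV-L1-FGGY against OV-CTRL 6 of the 8 were lower and 0 higher (all genes 36.2% and 32.5%), led by BCL3 (-3.75 ± 0.19, adjusted p = 2.6e-11), NFKBIB (-2.38 ± 0.15, adjusted p = 6.86e-10) and RELA (-0.67 ± 0.09, adjusted p = 4.91e-06). Under the NVR label, 4 were higher and 1 lower than the DMSO libraries of OV-L1-FGGY (all genes 38.2% and 35.4%). Against OV-CTRL 1 was higher (BCL3, 1.28 ± 0.17, adjusted p = 2e-05) and 1 lower (NFKBID, -1.13 ± 0.17, adjusted p = 8.81e-05), near the 14.5% and 15.3% of all genes.

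Of 17 other NF-kB target genes tested (SOD2 was not matched by symbol), 9 rose with ML355 and 1, PTGS2, fell, where 21.3% of all genes rose and 23.5% fell. BIRC3, an inhibitor of apoptosis, was 2.70 ± 0.13, adjusted p = 3.44e-10, the transcription factor IRF1 2.69 ± 0.14, adjusted p = 5.17e-10 and the pattern recognition protein PTX3 4.97 ± 0.27, adjusted p = 7.36e-10. In OV-L1-FGGY against OV-CTRL 13 were lower and 3 higher (CD83, CYLD and PTGS2), where 36.2% of all genes were lower and 32.5% higher, with CFLAR at -2.23 ± 0.10, adjusted p = 1.41e-11 and CD83 at 3.97 ± 0.20, adjusted p = 2.56e-11. Under the NVR label 12 were higher and 3 lower than the DMSO libraries of OV-L1-FGGY (all genes 38.2% and 35.4%), and 5 higher and 2 lower than in OV-CTRL (all genes 14.5% and 15.3%), led there by ZC3H12A (0.88 ± 0.11, adjusted p = 1.59e-05), BCL2A1 (1.26 ± 0.20, adjusted p = 0.000103) and PTGS2 (0.74 ± 0.14, adjusted p = 0.000488). BCL2A1 was at or under 3 counts in every library of OV-L1-FGGY with DMSO and averaged 17.96 ± 3.43 CPM (SD, n = 3) in OV-CTRL and 43.03 ± 7.99 under the NVR label.

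Of the receptors of these ligands, 24 of the 39 listed were tested, LTBR and CD40 among them although their ligands are not members. With ML355, 4 rose and 8 fell (all genes 21.3% and 23.5%), led by CXCR4 (-2.37 ± 0.10, adjusted p = 5.03e-11), the interleukin 1 receptor IL1R1 (-2.84 ± 0.16, adjusted p = 8.71e-10) and the TRAIL receptor TNFRSF10B (1.41 ± 0.14, adjusted p = 3.09e-07). IL1R1 fell while its ligands IL1A and IL1B rose. In OV-L1-FGGY against OV-CTRL 12 were higher and 6 lower (all genes 32.5% and 36.2%), with CXCR4 at 5.12 ± 0.11, adjusted p = 4.73e-15, LIFR at 5.19 ± 0.22, adjusted p = 4.44e-12 and ACKR3 at 4.91 ± 0.22, adjusted p = 8.6e-12. The NVR label gave 7 higher and 11 lower against OV-L1-FGGY with DMSO (all genes 38.2% and 35.4%), and 8 higher and 0 lower against OV-CTRL (all genes 14.5% and 15.3%), led by TNFRSF1B (1.81 ± 0.14, adjusted p = 1.3e-07), IL11RA (1.18 ± 0.15, adjusted p = 1.74e-05) and CSF2RA (0.94 ± 0.14, adjusted p = 7.01e-05).

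Of the 21 adapters and kinases between receptor and NF-kB, 5 rose with ML355 and 4 fell, shares near the 21.3% and 23.5% of all genes. RBCK1, a subunit of the linear ubiquitin ligase, was 1.94 ± 0.14, adjusted p = 1.46e-08, while RIPK1 was -1.55 ± 0.13, adjusted p = 6.83e-08 and MAP3K14 (NIK, the kinase of the non-canonical pathway) -1.45 ± 0.12, adjusted p = 8.07e-08. In OV-L1-FGGY against OV-CTRL 8 were higher and 12 lower (all genes 32.5% and 36.2%), led by IRAK1 (-1.95 ± 0.11, adjusted p = 1.1e-10), TAB3 (2.51 ± 0.14, adjusted p = 1.64e-10) and MAP3K14 (-1.74 ± 0.12, adjusted p = 1.24e-09). The NVR label gave 8 higher and 8 lower against OV-L1-FGGY with DMSO, near the 38.2% and 35.4% of all genes, and 4 higher and 6 lower against OV-CTRL (all genes 14.5% and 15.3%), with MAP3K14 at -1.60 ± 0.12, adjusted p = 6.05e-08 and TRADD at 1.10 ± 0.18, adjusted p = 0.000199.

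Of the 6 proteins that bind AU-rich elements, ZFP36 and ZFP36L1 rose with ML355 and 0 fell, where 21.3% of all genes rose and 23.5% fell. ZFP36 stood at 14.9 ± 2.04 CPM (SD over 3 libraries) for OV-L1-FGGY with DMSO, 212 ± 92.4 with ML355, 143 ± 1.94 in OV-CTRL and 364 ± 51.9 under the NVR label. The change with ML355 was 3.83 ± 0.25, adjusted p = 5.95e-09 for ZFP36 and 1.22 ± 0.21, adjusted p = 0.000122 for ZFP36L1. In OV-L1-FGGY against OV-CTRL 4 of the 6 were lower and 1, ZFP36L2, was higher (2.47 ± 0.18, adjusted p = 3.52e-09), where 36.2% of all genes were lower and 32.5% higher. Against OV-CTRL the NVR label was higher for ZFP36 (1.35 ± 0.23, adjusted p = 0.000197) and lower for the other 5 (all genes 14.5% and 15.3%).

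Finally, the change under the NVR label against OV-CTRL was set against the change with ML355 against DMSO in OV-L1-FGGY, 2 differences that share no library. The difference of the differences was called higher for 10 of the 34 members and lower for 12, where 16.8% of all genes tested were higher and 17.3% lower, with medians of -0.33 and 0.02. CXCL1 (2.47 ± 0.22, adjusted p = 2.57e-07) and IL6 (3.19 ± 0.20, adjusted p = 9.22e-09) were higher under the NVR label and fell with ML355, and their difference passed the test. The other 8 called higher were CCL2, CCL5, IL18, IL11, TNFSF10, TNFSF15, SAA1 (4.64 ± 0.69, adjusted p = 5.29e-05) and LCN2 (2.90 ± 0.34, adjusted p = 4.27e-06). Those called lower were CXCL3, CXCL16, IL1A, IL1B, IL32, LIF, CSF1, CSF2, TNF (-5.30 ± 0.56, adjusted p = 1.65e-06), NFKBIA (-1.77 ± 0.25, adjusted p = 3.42e-05), RELB (-1.94 ± 0.21, adjusted p = 1.93e-06) and TNFAIP3 (-1.89 ± 0.24, adjusted p = 1.21e-05). CXCL2 (-0.64 ± 0.20, adjusted p = 0.0151) and TNFAIP2 (-0.77 ± 0.23, adjusted p = 0.013) fell short, and were called without ML355 replicate 2 (CXCL2, -0.79, adjusted p = 0.00137) or without ML355 replicate 1 or NVR replicate 2 (TNFAIP2, adjusted p = 0.000834 and 0.00413). CXCL5, CXCL6, CX3CL1, CCL4, CSF3 and SAA2 had at most 3 counts in any OV-L1-FGGY library with DMSO or ML355, so no difference is given for them. These 6 were not called, but they are counted in the 34 members and in the median of -0.33. CSF2 with DMSO and TNFSF15 with ML355 were also at or under 3 counts in every library. The calls of CSF2 and TNFSF15 therefore rest on a group at that floor.

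Some of these calls were lost, or their values moved, when 1 library was left out. IL1B (-1.18 ± 0.31, adjusted p = 0.00522) was not called without replicate 1 or 3 of OV-L1-FGGY with DMSO, 1 or 2 of ML355, 1 or 3 of the NVR label or 2 or 3 of OV-CTRL, at adjusted p-values from 0.0101 to 0.0179. IL32 (-1.30 ± 0.32, adjusted p = 0.00362) was not called without replicate 1 of any group, at adjusted p-values from 0.0113 to 0.0146, and CCL5 (0.97 ± 0.24, adjusted p = 0.00333) without ML355 replicate 2 (adjusted p = 0.0101) or OV-CTRL replicate 2 (adjusted p = 0.0102). CCL2 (2.48 ± 0.58, adjusted p = 0.00226) was not called without replicate 2 of OV-L1-FGGY with DMSO (adjusted p = 0.0125) and reached 3.38 without ML355 replicate 1. CSF2 moved from -7.31 to -10.65 without replicate 2 and TNF to -7.26 without replicate 3 of OV-L1-FGGY with DMSO. Of the pathway lists, where 16.8% of all genes were higher and 17.3% lower, the other subunits and inhibitors had 0 higher and 7 lower of 8, other targets 1 and 8 of 17, receptors 10 and 3 of 24, adapters and kinases 5 and 8 of 21, and AU-rich element binding proteins 0 and 3 of 6. The smallest adjusted p-values in these lists belonged to BIRC3 (-2.99 ± 0.18, adjusted p = 7.88e-09), PTX3 (-5.37 ± 0.33, adjusted p = 8.04e-09) and IL1R1 (3.18 ± 0.22, adjusted p = 1.92e-08).

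**Figure D5:**
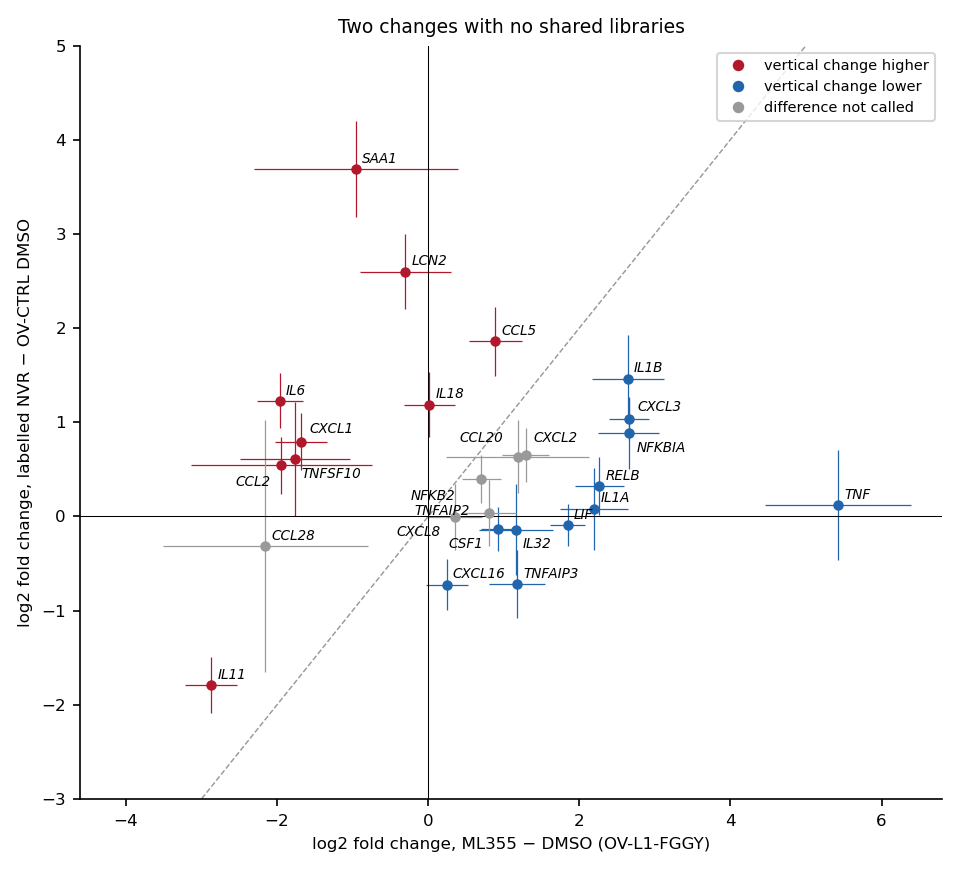
Log2 fold change with ML355 against DMSO in OV-L1-FGGY (horizontal axis) and of the libraries labelled NVR against OV-CTRL (vertical axis), for members over 3 counts in some library of each group. Bars are 95% intervals, the dashed line marks equal change, and colours give the test of the difference. CXCL1, IL6, CCL2 and SAA1 lie above the line, and TNF, IL1A, NFKBIA and RELB below it.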

How the data were processed

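RNA of 12 H520 libraries was sequenced as total RNA, and the deposited values are whole-number counts per Ensembl gene. Per the labels and the study's methods, the authors aligned to hg38 with STAR 2.5.3a and obtained the counts with HTSeq 0.11.2. The annotation release, strand setting and handling of reads with several matches are not given in the sources used here. Groups came from sample titles, and the count columns named for DMSO alone were assigned to CTRL_DMSO because the other columns match other titles. There were 0 unused columns. Of 58302 genes, 57532 identifiers matched a symbol in GENCODE 44, 36072 had a count and 17849 passed filterByExpr. The edgeR 4.0.16 quasi-likelihood test (robust, TMM, 4 groups in 1 fit, common biological coefficient of variation 0.143) was run with R 4.3.3, with Benjamini-Hochberg adjustment over all genes tested and a threshold of 0.01. The SE is the log2 fold change divided by the square root of F. CPM use TMM scaling. Where all libraries of a group were at 0 the fold is a lower bound against 3 counts per library, and where each had 3 or fewer it is a ratio of pooled counts with an exact interval. Such intervals and floors cover counting error only. The alternatives tried were voom, the study's own test (limma 3.58.1), DESeq2 1.42.0, other scalings, filters, thresholds, a replicate block and leaving out each library. The procedure was tested on simulated data. Replicates differed by more than sampling noise, with chi-square per degree of freedom of 6.49 to 82.0.

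The members and gene lists were chosen with earlier results of these data known. Every member was accounted for, those with a mean of at least 1 CPM in a group with values in every library, and of each pathway list the counts and up to 3 genes per comparison with the smallest adjusted p, while other list genes were named after their values were seen. Identity was computed between transcripts and promoter windows, and the comparison of proteins that had been planned was not run.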

Additional observations from a re-analysis of the deposited data

How the results depend on the processing

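Leaving out each library in turn gave 15 to 16 members higher and 5 to 6 lower with ML355, 4 and 25 in OV-L1-FGGY against OV-CTRL, 24 to 25 and 2 for the NVR label against OV-L1-FGGY, 13 to 16 and 3 to 4 against OV-CTRL, and 9 to 11 and 10 to 13 for the difference. With at least 10 counts in every library only 20 members were tested, and the counts fell to 3 lower with ML355, 14 lower in OV-L1-FGGY against OV-CTRL, 14 higher and 1 lower for the NVR label against OV-L1-FGGY, and 6 higher for the difference. The shares of all genes under this filter are not given here. The 2 members lower for the NVR label against OV-L1-FGGY became 5 with library size alone and 4 at an adjusted p under 0.05, and the NVR label against OV-CTRL had 2 lower with a minimum absolute log2 fold change of 1. Library size alone moved the median of all genes to -0.13 (ML355), -0.15 (NVR label against OV-CTRL) and -0.16 (against OV-L1-FGGY), and the split of all genes in the NVR label against OV-CTRL from 2593 higher and 2723 lower to 1825 and 3208.

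The sign changed only for values that were not called. For IL18 with ML355 it was -0.1191 with library size alone, -0.0108 without a filter, -0.0102 with at least 10 counts and -0.1299 to 0.0935 without single libraries. For the NVR label against OV-L1-FGGY, library size alone gave -0.081 for CXCL16, -0.0201 for IL11, -0.2331 for IL32 and -0.0092 for TNFSF10, and IL32 was -0.0306 with voom and -0.2961 to 0.2781 without single libraries. Against OV-CTRL, CXCL8 was 0.0333 with DESeq2 size factors, 0.0332 with DESeq2, 0.0227 with at least 10 counts and -0.1484 to 0.136 without single libraries. Library size alone gave -0.0688 for IL1A, -0.0409 for TNF and -0.11 for TNFAIP2. Without single libraries the range was -0.4682 to 0.1059 for IL32, -0.3587 to 0.1436 for TNFSF15 and -0.0711 to 0.1412 for TNFAIP2. The cause was not tested. DESeq2 added 7 member calls over the comparisons and lost 0, and voom added 4 and lost 3.

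Replicate numbers did not pair the libraries (correlations of deviations -0.354 to 0.17). With the replicate block 15 members were higher and 6 lower with ML355, 4 and 26 in OV-L1-FGGY against OV-CTRL, 25 and 2 for the NVR label against OV-L1-FGGY, 13 and 4 against OV-CTRL, and 10 and 12 for the difference. The block added the call of IL1A in OV-L1-FGGY against OV-CTRL (-0.62, adjusted p = 0.00636) and lost those of CCL2 with ML355 (-1.95, adjusted p = 0.0115) and of CCL2 for the NVR label against OV-CTRL.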
